A study of Homo sapiens with 12 samples.

Results

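The SMAD family and its SKI repressors were followed in newly made RNA of U2OS-MycER cells. U2OS is a human line from an osteosarcoma, and MycER is a chimera of Myc with the ligand-responsive domain of the estrogen receptor. The 10 members (SMAD1, SMAD2, SMAD3, SMAD4, SMAD5, SMAD6, SMAD7, SMAD9, SKI and SKIL) were taken by gene identifier from a table of counts for 23434 genes, and each member matched 1 entry. All cells carried MycER and a doxycycline-inducible hairpin, and all were given 1 µg/mL doxycycline, arrested with 100 ng/mL nocodazole for 8 h, collected by shake-off, released for 12 h and given 0.5 mM 5-ethynyl-uridine (EU) for the last 2 h, so that RNA made in this window could be captured with biotin and sequenced (EU-seq). The 12 libraries fall into 4 groups of 3. They are shNT (non-targeting hairpin), shNT_OHT (the same hairpin with 300 nM 4-hydroxytamoxifen, OHT, for 40 h, which activates MycER), shCDK12 (hairpin against CDK12, a kinase of the RNA polymerase II tail) and shCDK12_OHT. The labels name 1 line and do not say how many hairpin sequences, clones or separate cultures were used, so p-values measure the spread between these libraries, which may be technical.

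SMADs carry signals of the TGF-β superfamily from the cell surface to chromatin. Activated receptors phosphorylate the receptor-regulated SMADs, which are SMAD2 and SMAD3 for TGF-β and activin and SMAD1, SMAD5 and SMAD9 for bone morphogenetic proteins (BMPs), and these join the common partner SMAD4 and enter the nucleus. SMAD6 and SMAD7 are inhibitory SMADs that block receptors or compete for SMAD4, and SKI and SKIL (SnoN) bind SMAD complexes on DNA and recruit corepressors. SMAD6, SMAD7 and SKIL are themselves known targets of the pathway, which makes them part of its negative feedback, and in mesenchymal cells such as osteosarcoma lines the TGF-β arm is known for extracellular matrix genes and the BMP arm for ID genes.

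Total counts ranged from 1928373 to 5227279 in shNT, from 1251695 to 3666406 in shNT_OHT, from 4142570 to 9400045 in libraries with the shCDK12 label and from 5378438 to 10447836 in those with the shCDK12_OHT label, so members with few counts were measured least precisely in shNT and shNT_OHT. Levels are given as CPM, the count of a gene relative to the total of its library, after TMM scaling between libraries. CDK12 stood at 323, 289 and 300.2 CPM in shNT, at 434, 356 and 400.5 CPM in shNT_OHT, at 293, 277 and 298 CPM in libraries with the shCDK12 label and at 215, 208 and 218 CPM in those with the shCDK12_OHT label. Without OHT the targeted gene was thus not detectably lower under its hairpin (log2 fold change −0.076 ± 0.084, SE, edgeR adjusted p = 0.447, n = 3 per group, and 0.015 with upper-quartile scaling), while with OHT it was lower (−0.88 ± 0.11, edgeR adjusted p = 0.00011). New RNA of CDK12 thus did not bear out the label for 1 of the 2 hairpin groups. CDK12 was also lower in libraries with the shCDK12_OHT label than in shNT (−0.51 ± 0.074, edgeR adjusted p = 7.69e-07). It was lower in those with the shCDK12 label than in shNT_OHT (−0.44 ± 0.12, adjusted p = 0.0107). A hairpin acts on finished RNA, while EU-seq reads RNA made within 2 h, so this level alone cannot decide whether the label holds. Why CDK12 was lower with OHT and not detectably without it was not tested. Knockdown and an exchange of labels were not tested, and both groups are called by their labels throughout. The direction of each OHT response under the hairpin label, and the interaction, rest on these labels. Replicate 1 of shNT_OHT stood apart from the other two, with a chi-square per gene of 8.83 and 9.77 against 3.89 between those, and replicates 1 and 2 labelled shCDK12 differed by 8.12. Of 10 mesenchymal and osteosarcoma-line markers 8 were above 10 CPM on average (VIM, FN1, COL1A1, SPARC, CDH2, RUNX2, THY1 and S100A4). Their list summed to 1666 to 1743 CPM in shNT, 1108 to 1201 CPM in shNT_OHT, 457 to 471 CPM in libraries with the shCDK12 label and 642 to 657 CPM in those with the shCDK12_OHT label, so it moved with the conditions. The 8 epithelial markers, of which only CLDN4 exceeded 10 CPM and KRT19 was at 0 in all libraries, summed to 38.8 to 47.6, 23.9 to 38.6, 56.6 to 64.6 and 111 to 124 CPM in the same order of groups. The blood, endothelial and neural lists, with 0 genes above 10 CPM in each, summed to at most 7.41, 11.1 and 33.1 CPM in any library. The part of these lists in the results for the members was not tested, and in these bulk libraries fewer cells of a type and less new RNA per cell cannot be told apart.

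SKIL and SMAD3 carried the widest changes among the well-covered members. Both fell upon MycER activation in shNT, both were lower in the libraries labelled shCDK12 than in shNT, and both rose upon OHT in the libraries labelled shCDK12, by 1.76-fold and 1.83-fold. SMAD7 shared the last 2 of these changes in smaller size. SMAD9 was higher in both hairpin groups than in their shNT counterparts, and SMAD1 and SMAD4 passed the test in 0 of the 5 comparisons.

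**Figure D1:**
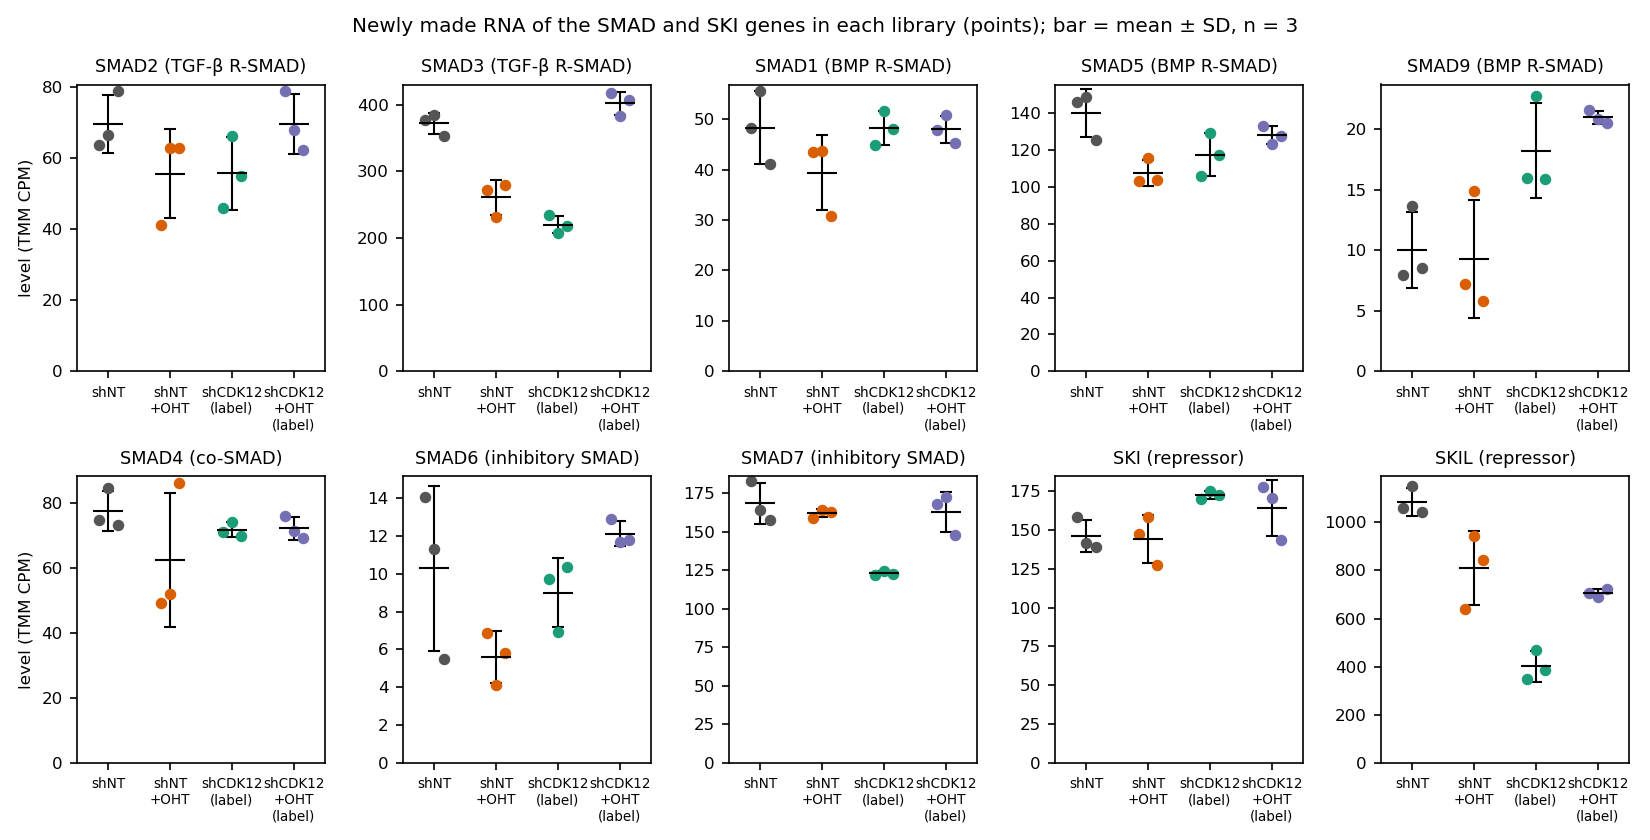
Level of each member in TMM-scaled CPM (vertical axes from 0) in the 4 groups, with 1 point per library and a bar for the mean ± SD of 3 libraries. SKIL ran from 347 to 1152 CPM and SMAD3 from 208 to 417 CPM, with their lowest group among the libraries labelled shCDK12, while SKI stayed between 128 and 178 CPM.

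SMAD3, the TGF-β receptor-regulated SMAD that binds DNA directly, stood at 377, 385 and 354 CPM in shNT, at 272, 231 and 280.1 CPM in shNT_OHT, at 234, 208 and 218 CPM in libraries with the shCDK12 label and at 417, 383 and 407 CPM in those with the shCDK12_OHT label. The shNT and labelled shCDK12_OHT libraries were high and the other two groups low, with no overlap in any of the 4 pairwise comparisons. SMAD3 fell by 0.51 ± 0.11 on the log2 scale upon OHT in shNT (edgeR adjusted p = 0.0080, n = 3 per group), and the call was lost without replicate 2 of shNT (adjusted p = 0.0572). In the libraries labelled shCDK12 the log2 fold change against shNT was −0.76 ± 0.083 (adjusted p = 1.97e-08), and there SMAD3 rose by 0.87 ± 0.076 upon OHT (adjusted p = 6.51e-08). With OHT in both arms it was higher under the hairpin label, at 0.64 ± 0.11 (adjusted p = 0.000823). The order of its levels was shCDK12_OHT, shNT, shNT_OHT and shCDK12, in which neither the upper pair (adjusted p = 0.172) nor the lower pair (adjusted p = 0.165) differed beyond its spread.

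SMAD2, the other TGF-β receptor-regulated SMAD, whose common isoform does not bind DNA by itself, ran from 41.0 to 78.7 CPM over the 12 libraries. Its values were 63.5, 66.4 and 78.7 CPM in shNT, 41.0, 62.7 and 62.6 CPM in shNT_OHT, 45.9, 66.2 and 54.8 CPM in libraries with the shCDK12 label and 78.7, 67.9 and 62.0 CPM in those with the shCDK12_OHT label. The 4 fold changes had the same signs as those of SMAD3, but the libraries overlapped in 3 of the 4 pairwise comparisons (all but OHT in shNT) and 0 of the 4 passed the test, with edgeR adjusted p from 0.0519 to 0.253. Without replicate 2 labelled shCDK12, the 2 comparisons that use this group did pass (adjusted p = 0.00712 against shNT and 0.00201 upon OHT), and the latter also passed without replicate 3 labelled shCDK12_OHT (0.0458) and with no filter on low counts (0.0211).

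SKIL had the most counts of the members in every library. It stood at 1060.2, 1152 and 1045 CPM in shNT, at 640.1, 942 and 845 CPM in shNT_OHT, at 347, 470.0 and 384 CPM in libraries with the shCDK12 label and at 704, 691 and 723 CPM in those with the shCDK12_OHT label. The 3 shNT libraries were above all others, the 3 labelled shCDK12 below all others, and those with OHT lay between and overlapped. SKIL fell by 0.43 ± 0.13 on the log2 scale upon OHT in shNT (edgeR adjusted p = 0.0287, n = 3 per group), but the call was lost when any 1 of the 3 shNT libraries or replicate 3 of shNT_OHT was left out (adjusted p from 0.0746 to 0.129). It was 0.369 times its shNT level in the libraries labelled shCDK12 (log2 fold change −1.44 ± 0.091, adjusted p = 8.85e-13) and rose there upon OHT by 0.81 ± 0.092 (adjusted p = 1.28e-06). Between the 2 groups with OHT the difference was −0.17 ± 0.13 (adjusted p = 0.294). Without replicate 1 of shNT_OHT, the library that stood apart, this last difference was −0.33 (adjusted p = 0.00344).

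SKI, the founding member of the repressor pair, behaved differently. Its level was 158, 142 and 139 CPM in shNT, 148, 158 and 128 CPM in shNT_OHT, 170.0, 176 and 173 CPM in libraries with the shCDK12 label and 178, 171 and 144 CPM in those with the shCDK12_OHT label. The libraries labelled shCDK12 lay above all 3 of shNT, at a log2 fold change of 0.23 ± 0.091 (edgeR adjusted p = 0.0296, n = 3 per group), but this call was lost without replicate 2 or 3 of shNT (adjusted p = 0.125 and 0.0905) or replicate 3 labelled shCDK12 (0.0742), and also with no filter on low counts, with thinning and with all 12 libraries in one fit (0.0517 to 0.106). The other 3 pairwise comparisons of SKI gave log2 fold changes from −0.071 to 0.21 with overlapping libraries and did not pass. The ratio of SKIL to SKI counts within a library does not depend on the scaling between libraries, and it was 7.44 ± 0.72 (SD, n = 3) in shNT, 5.64 ± 1.17 in shNT_OHT, 2.31 ± 0.33 in libraries with the shCDK12 label and 4.34 ± 0.59 in those with the shCDK12_OHT label. It was lowest in the 3 libraries labelled shCDK12, with 2.04 to 2.68, and no library of another group fell below 3.96.

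**Figure D2:**
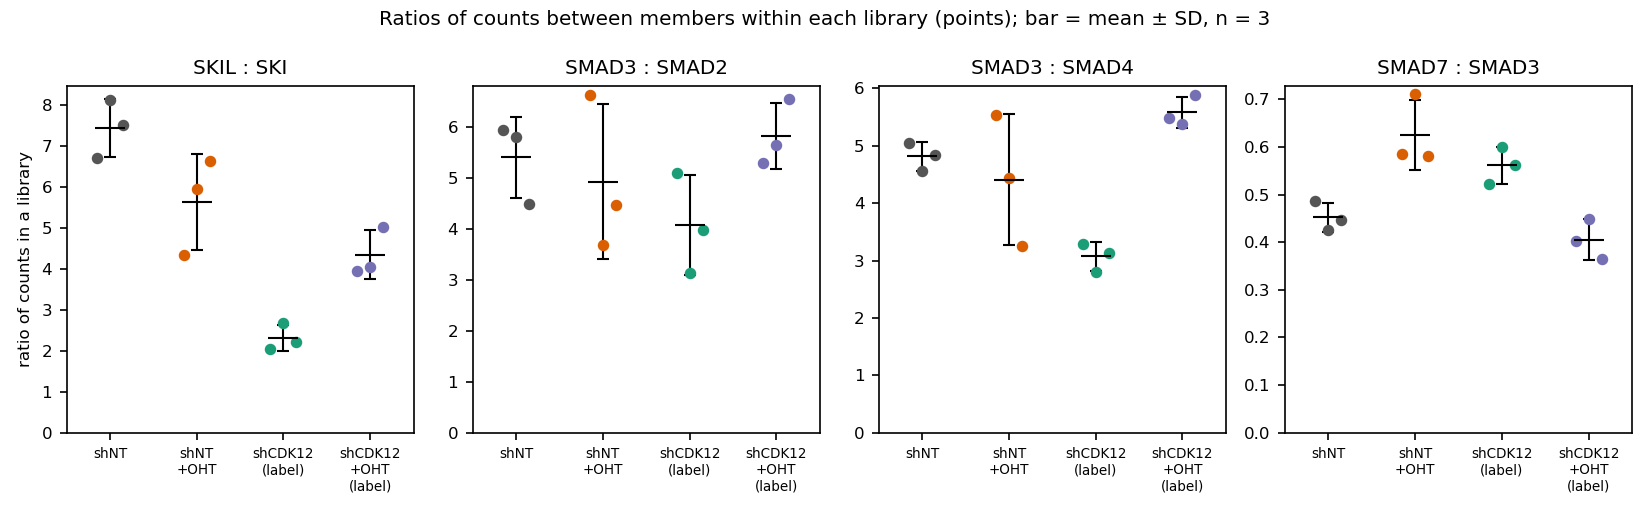
Ratio of the counts of 2 members in the same library (vertical axes from 0) for SKIL to SKI, SMAD3 to SMAD2, SMAD3 to SMAD4 and SMAD7 to SMAD3, with 1 point per library and a bar for the mean ± SD of 3 libraries. SKIL to SKI was 2.04 to 2.68 in libraries with the shCDK12 label and 6.70 to 8.12 in shNT, while SMAD3 to SMAD2 was 3.14 to 5.10 in the libraries labelled shCDK12, below the 5.30 to 6.56 of those labelled shCDK12_OHT and overlapping with the other groups.

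SMAD7, the inhibitory SMAD that acts on TGF-β and BMP receptors, was at 183, 164 and 158 CPM in shNT, at 159, 164 and 163 CPM in shNT_OHT, at 122, 125 and 123 CPM in libraries with the shCDK12 label and at 168, 172 and 148 CPM in those with the shCDK12_OHT label. The libraries labelled shCDK12 were lower than all 9 others, and the other 3 groups overlapped. SMAD7 was lower by a log2 fold change of −0.46 ± 0.093 in the libraries labelled shCDK12 than in shNT (edgeR adjusted p = 0.000161, n = 3 per group) and rose there upon OHT by 0.40 ± 0.084 (adjusted p = 0.000644). Upon OHT in shNT it changed by −0.062 ± 0.12 (adjusted p = 0.770), and with OHT in both arms it differed by 0.027 ± 0.11 (adjusted p = 0.858), a sign that turned with upper-quartile scaling and with DESeq2. The counts of SMAD7 relative to SMAD3 were 0.453 ± 0.030 (SD, n = 3) in shNT, 0.625 ± 0.074 in shNT_OHT, 0.561 ± 0.039 in libraries with the shCDK12 label and 0.405 ± 0.043 in those with the shCDK12_OHT label. The 2 groups with the lower SMAD3 level thus had the higher ratio, with no overlap.

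SMAD6, the inhibitory SMAD that acts mainly on the BMP arm, had 5 to 123 counts per library. SMAD6 was the lowest member in all groups but shNT, where it averaged 10.3 CPM and SMAD9 10.0 CPM. It stood at 14.1, 11.3 and 5.51 CPM in shNT, at 6.89, 4.12 and 5.80 CPM in shNT_OHT, at 9.73, 6.93 and 10.4 CPM in libraries with the shCDK12 label and at 12.9, 11.7 and 11.8 CPM in those with the shCDK12_OHT label. The shNT libraries spanned more than the distance between the highest and the lowest group mean. SMAD6 was under the limit of a mean normalized count above 32 in the comparison of OHT in shNT and was not tested there. With OHT in both arms it was higher in the libraries labelled shCDK12_OHT, at a log2 fold change of 1.06 ± 0.27 (edgeR adjusted p = 0.00923, n = 3 per group), and the call was lost without replicate 1 of that group (adjusted p = 0.0503). In that fit SMAD6 averaged 29.2 normalized counts in shNT_OHT and 63.2 in the libraries labelled shCDK12_OHT, so it passed the limit only through the group where it was high, and the call is given as a description. The other 2 differences did not pass, at −0.29 ± 0.29 without OHT (adjusted p = 0.391) and 0.46 ± 0.20 upon OHT under the hairpin label (adjusted p = 0.0640, and 0.0376 or 0.0427 without replicate 1 or 3 labelled shCDK12).

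Among the BMP receptor-regulated SMADs, SMAD9 (SMAD8) was higher under the hairpin label. Its level was 7.96, 13.7 and 8.52 CPM in shNT, 7.21, 14.8 and 5.80 CPM in shNT_OHT, 16.0, 22.8 and 15.9 CPM in libraries with the shCDK12 label and 21.6, 20.8 and 20.5 CPM in those with the shCDK12_OHT label, from 17 to 219 counts per library. All 6 libraries under the hairpin label were above all 6 with shNT. The log2 fold change was 0.84 ± 0.25 without OHT (edgeR adjusted p = 0.00519, n = 3 per group, and 0.0535 without replicate 2 labelled shCDK12) and 1.37 ± 0.30 with OHT (adjusted p = 0.00337). SMAD9 was not tested for OHT in shNT because of its low counts there, and upon OHT under the hairpin label it differed by 0.17 ± 0.16 (adjusted p = 0.397). SMAD5 ran from 103.4 to 149 CPM, with means of 140.1 ± 12.9 (SD, n = 3) in shNT, 108 ± 6.87 in shNT_OHT, 118 ± 11.8 in libraries with the shCDK12 label and 128 ± 4.85 in those with the shCDK12_OHT label. Its 3 shNT_OHT libraries were below the 3 of shNT, but the difference of −0.39 ± 0.14 did not pass (edgeR adjusted p = 0.0584). It did pass without replicate 1 or 2 of shNT_OHT (adjusted p = 0.0351 and 0.0437) and with all 12 libraries in one fit (0.0147). SMAD5 was lower in the libraries labelled shCDK12 than in shNT at −0.26 ± 0.10 (adjusted p = 0.0295), with overlapping libraries, and this call was lost without replicate 1 or 2 of shNT or replicate 1 or 3 labelled shCDK12 (adjusted p from 0.0801 to 0.162), and also with upper-quartile scaling, DESeq2 and all 12 libraries in one fit (0.0529 to 0.143). SMAD1 ran from 30.7 to 55.6 CPM and its 4 pairwise log2 fold changes from −0.33 to 0.33, with edgeR adjusted p from 0.142 to 0.942. Without replicate 1 of shNT_OHT, SMAD1 did pass between the 2 groups with OHT (0.46, adjusted p = 0.0202).

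SMAD4, the common partner of both arms, had means of 77.5 ± 6.15 CPM (SD, n = 3) in shNT, 62.4 ± 20.6 CPM in shNT_OHT, 71.7 ± 2.33 CPM in libraries with the shCDK12 label and 72.2 ± 3.56 CPM in those with the shCDK12_OHT label. Replicate 3 of shNT_OHT, at 86.1 CPM, was far above the other two of that group, at 49.2 and 52.0 CPM, and the groups overlapped in all 4 pairwise comparisons, with edgeR adjusted p from 0.334 to 0.955. Without that library SMAD4 was higher in the libraries labelled shCDK12_OHT than in shNT_OHT (0.51, adjusted p = 0.0197). The ratio of SMAD3 to SMAD4 counts was 4.81 ± 0.25 (SD, n = 3) in shNT, 4.41 ± 1.14 in shNT_OHT, 3.07 ± 0.25 in libraries with the shCDK12 label and 5.58 ± 0.27 in those with the shCDK12_OHT label. The 3 libraries labelled shCDK12 had 2.80 to 3.29, below all 3 of shNT and all 3 labelled shCDK12_OHT.

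The number of members called is set here against the share over all genes tested. Upon OHT in shNT, 2 of the 8 members tested were called, 0 higher and 2 lower, where the background over 10272 genes was 17.3% (9.05% higher and 8.29% lower). Leaving out 1 library at a time gave 0 to 3 members called, with 0 without replicate 2 of shNT, 1 without replicate 1 or 3 of shNT or replicate 3 of shNT_OHT, and 3 without replicate 1 or 2 of shNT_OHT. The libraries of 4 of the 8 members did not overlap, against 35.9% of genes. All 8 had a negative log2 fold change, with a median of −0.33 against −0.029 over all genes, though that of SKI was 0.0076 with upper-quartile scaling.

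In the libraries labelled shCDK12 against shNT, 6 of 10 members were called, with SMAD9 and SKI higher and SMAD3, SMAD5, SMAD7 and SKIL lower, where the background over 11718 genes was 62.0% (29.6% higher and 32.4% lower). The libraries of 5 members did not overlap, against 64.5% of genes, and the median log2 fold change was −0.28 against −0.027 over all genes. Upon OHT in the libraries labelled shCDK12, 3 of 10 were called, with SMAD3, SMAD7 and SKIL higher, against a background of 48.9% over 12519 genes (27.5% higher). The libraries of 4 did not overlap, against 56.3% of genes, and the median was 0.24 against 0.048. Between the 2 groups with OHT, 3 of 10 were called, with SMAD3, SMAD6 and SMAD9 higher under the hairpin label, against a background of 45.4% over 11668 genes (23.8% higher). SMAD6 entered this count only through the group where it was high, as given above. The libraries of 5 did not overlap, against 55.2% of genes, and the median was 0.30 against 0.048. The count called there was 5 without replicate 1 of shNT_OHT, the library that stood apart, and 2 without replicate 1 labelled shCDK12_OHT.

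**Figure D3:**
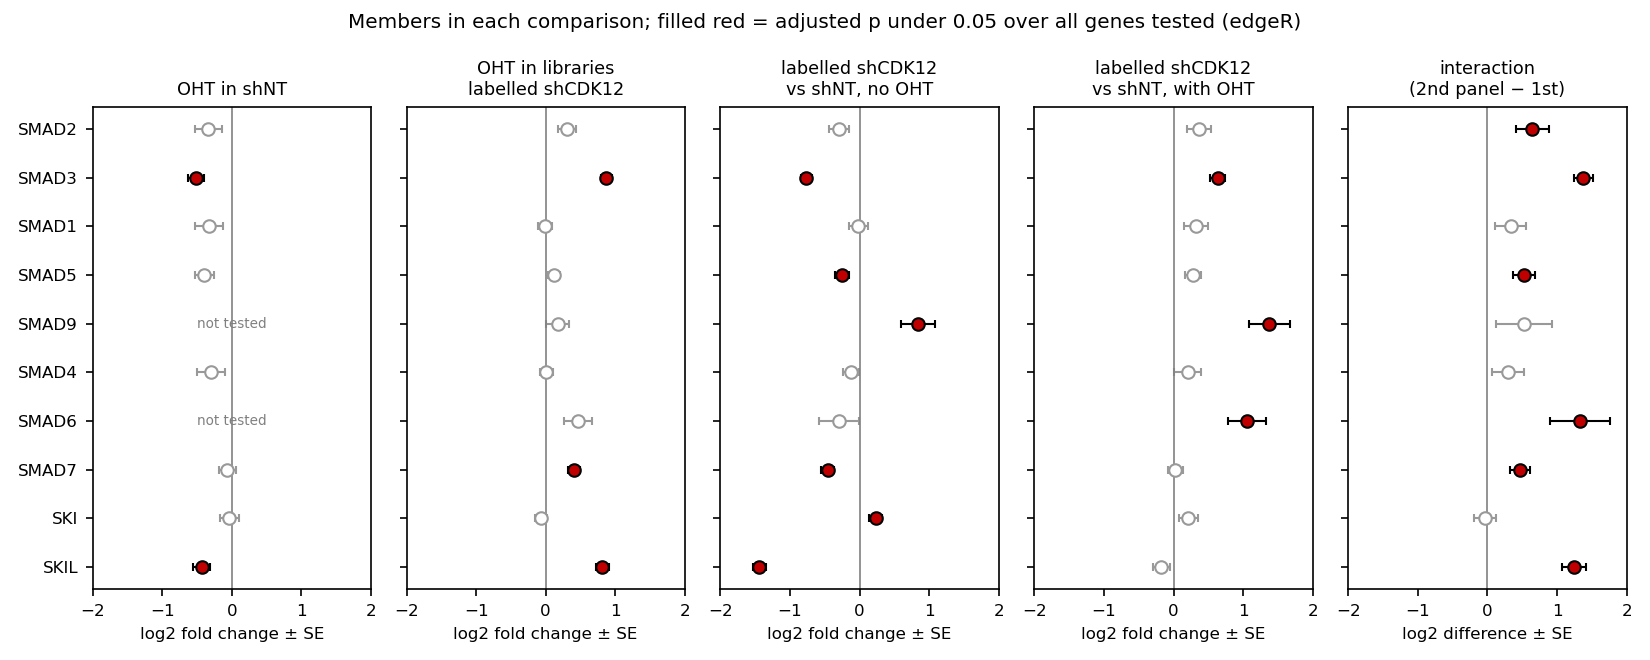
Log2 fold change ± SE of each member (horizontal axes) in the 4 pairwise comparisons and the interaction, each group with 3 libraries. Filled red points have an edgeR adjusted p under 0.05 over all genes tested, and SMAD3 and SKIL are red in all panels but that of SKIL with OHT in both arms, where it was −0.17.

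The interaction asks whether the OHT response under the hairpin label differed from that in shNT, and it was tested over all 12 libraries. It was higher for 6 of 10 members (SMAD2, SMAD3, SMAD5, SMAD6, SMAD7 and SKIL) and lower for 0, where the background over 11699 genes was 45.2% called (25.6% higher and 19.6% lower). The median over the members was 0.52 against 0.10 over all genes. SMAD3 had the largest difference, at 1.38 ± 0.14 on the log2 scale (edgeR adjusted p = 1.37e-07), followed by SMAD6 at 1.33 ± 0.43 (adjusted p = 0.0159, with shNT_OHT, at 28.9 normalized counts, below the limit of the filter) and SKIL at 1.25 ± 0.17 (adjusted p = 8.66e-06). SMAD2 (0.65), SMAD5 (0.52) and SMAD7 (0.46) were smaller, with adjusted p of 0.0339, 0.0113 and 0.0117. SMAD3 and SKIL passed under every alternative and with any 1 library left out. SMAD6 lost its call without replicate 1 of shNT (adjusted p = 0.0614) or replicate 2 labelled shCDK12 (0.0504), and SMAD2 lost its call without any 1 of replicates 2 and 3 of shNT, 1 of shNT_OHT, 1 and 3 labelled shCDK12, and 1 and 2 labelled shCDK12_OHT (adjusted p from 0.0509 to 0.0958). With upper-quartile scaling, which moved the median interaction of all genes by −0.12, SMAD2 and SMAD7 did not pass (adjusted p = 0.0675 and 0.0525) and 4 members were called. SKI was at −0.038 ± 0.16 (adjusted p = 0.863), SMAD1 at 0.33 ± 0.22 (0.227), SMAD4 at 0.29 ± 0.23 (0.305, and 0.00815 without replicate 3 of shNT_OHT) and SMAD9 at 0.53 ± 0.41 (0.304).

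**Figure D4:**
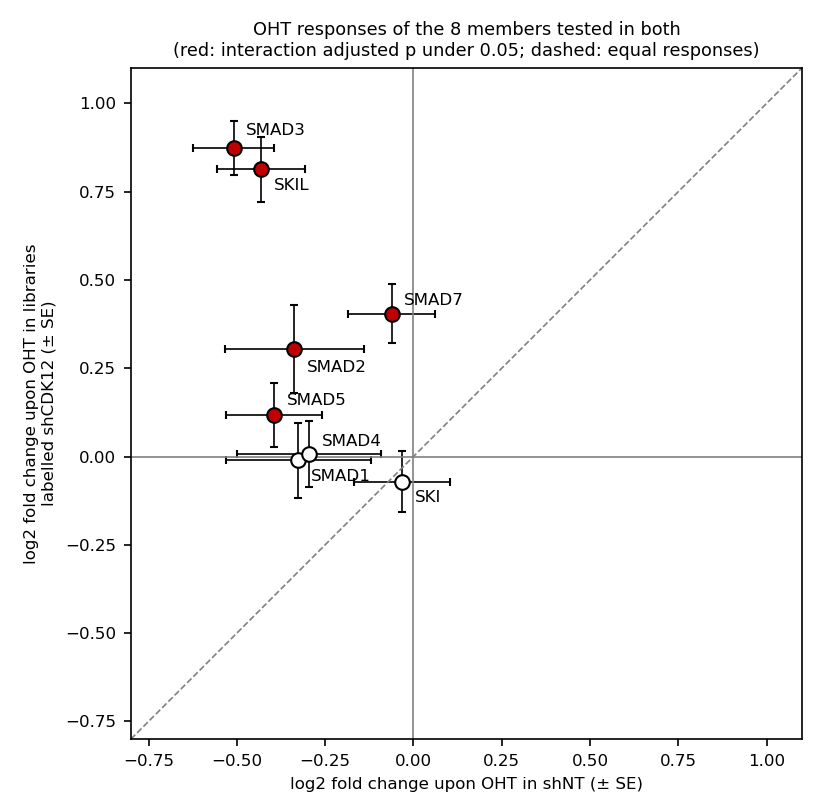
Log2 fold change upon OHT in shNT (horizontal axis) and in the libraries labelled shCDK12 (vertical axis) for the 8 members tested in both, with SE as bars, n = 3 libraries per group. SMAD3 and SKIL lie at −0.51 and −0.43 on the horizontal axis and at 0.87 and 0.81 on the vertical one, and the 5 red points passed the interaction test.

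The order of the levels over the 4 groups needed 2 further comparisons. Between the groups with the shCDK12_OHT label and shNT, 2 of 10 members were called, SMAD9 higher and SKIL lower (−0.62 ± 0.066, edgeR adjusted p = 1.97e-09), against a background of 55.6% over 11981 genes (28.4% higher and 27.3% lower), and the libraries of 2 did not overlap, against 59.7% of genes. Between the groups with the shCDK12 label and shNT_OHT, 3 of 10 were called, SMAD9 higher and SMAD7 and SKIL lower, against a background of 39.2% over 11238 genes (18.9% higher and 20.3% lower), and the libraries of 6 did not overlap, against 50.4% of genes. SKIL thus descended from shNT through shNT_OHT and shCDK12_OHT to shCDK12, and only its middle neighbours did not differ beyond their spread. SMAD7 had 1 step that passed, between shNT_OHT and shCDK12 at the bottom of its order, and SMAD9 had 1, between shCDK12 and shNT. For SMAD1, SMAD2, SMAD4, SMAD5, SMAD6 and SKI no neighbours in the order differed beyond their spread.

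Levels were compared between genes per kb of merged exon. The lengths came from GENCODE on GRCh38 and the counts from hg19, so they may not cover the same exons and the ranks are rough. Merged exons were longest in SMAD2 (36426 bases) and SMAD4 (19606 bases), which lowers their values on this scale. On it SKIL was highest at 92.4 CPM per kb over the 12 libraries, followed by SMAD7 (39.0), SMAD3 (31.4), SKI (23.5) and SMAD5 (13.6). SMAD1 (6.48), SMAD4 (3.62), SMAD9 (2.46), SMAD2 (1.72) and SMAD6 (1.08) were lower. The repressors and SMAD7 were thus among the 4 most abundant, together with SMAD3. New RNA can include introns, and per kb of the whole gene SKIL and SMAD7 stayed the highest and SMAD6 the lowest, while SMAD5 came before SMAD3 and SKI, SMAD4 before SMAD1, and SMAD2 before SMAD9. SMAD5 shares its locus with SMAD5-AS1 on the other strand, which had 6 to 67 counts, SMAD1 overlaps SMAD1-AS1 and SMAD1-AS2 on the other strand, and SMAD9 overlaps SMAD9-IT1 on its own strand. Unnamed genes overlap SMAD3 on the other strand (2), SMAD4 on both (1 each), SMAD5 (3) and SMAD6 (1) on their own strand, and SMAD2 on both, where 1 of 4 is named (MTCO2P2). SMAD7, SKI and SKIL overlap 0 genes in this annotation. The use of strand in counting is not given in the sources used here, so reads of overlapping genes cannot be told apart.

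The genes with the closest pattern were sought for the 3 members with the widest range of group means, as the smallest root mean square difference in centred log2 CPM over the 12 libraries among 11689 genes. For SKIL they were SELENOS (0.12) and ERBIN (0.12), against a median of 0.64 over all genes. For SMAD9 they were FGF5 and ENPP4 (both 0.24, median 0.73), and for SMAD6 ADORA1 (0.16) and EPHB2 (0.17, median 0.63). The closest genes of SKIL were thus nearer to it than those of the sparsely counted SMAD9 were to that gene, and the points share library depth and scaling.

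The sequence before the start site is shown for SKIL and SMAD3, which carried the widest well-covered changes, and for SMAD6, which holds the palindromic SMAD site. Each is the stretch of 250 bases upstream of a RefSeq start (GRCh38.p14, all on the plus strand), for SKIL chr3:170357465-170357714, for SMAD3 the first annotated start at chr15:67065352-67065601 and for SMAD6 chr15:66701986-66702235. Capitals mark the motifs searched, which were the SMAD palindrome GTCTAGAC, the SMAD element CAGACA, the GC-rich SMAD element GGCGCC, the E-box CACGTG that Myc can bind and the AP-1 site TGACTCA, on both strands.
SKIL: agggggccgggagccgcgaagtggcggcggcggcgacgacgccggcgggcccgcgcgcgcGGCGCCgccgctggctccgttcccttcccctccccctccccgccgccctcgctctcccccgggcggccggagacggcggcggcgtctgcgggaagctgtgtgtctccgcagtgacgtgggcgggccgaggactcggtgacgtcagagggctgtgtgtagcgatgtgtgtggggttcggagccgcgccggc
SMAD3: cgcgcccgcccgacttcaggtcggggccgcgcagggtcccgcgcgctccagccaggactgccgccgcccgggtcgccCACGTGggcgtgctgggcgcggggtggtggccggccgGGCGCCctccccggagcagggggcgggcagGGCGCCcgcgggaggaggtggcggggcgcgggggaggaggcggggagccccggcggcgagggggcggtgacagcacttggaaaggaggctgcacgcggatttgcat
SMAD6: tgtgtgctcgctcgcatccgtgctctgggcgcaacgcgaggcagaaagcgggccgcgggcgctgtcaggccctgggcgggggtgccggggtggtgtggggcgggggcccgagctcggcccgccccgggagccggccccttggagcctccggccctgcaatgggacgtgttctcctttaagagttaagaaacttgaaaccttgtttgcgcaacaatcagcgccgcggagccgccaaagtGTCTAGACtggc
RefSeq promoters were matched for 9 members with 20 start sites, and the missing entry was SKI. GGCGCC was found in SKIL, SMAD1, SMAD2, SMAD3 and SMAD4, 5 of 9 members, against 19.0% of all genes, and CACGTG in SMAD1, SMAD3 and SMAD9 against 7.73%. TGACTCA was found in SMAD1 and at another SMAD3 start (5.19% of genes), CAGACA at a further SMAD3 start (16.3%), and GTCTAGAC in SMAD6 only (0.231%). Members with several starts have more chances to hold a motif, and these matches describe letters in the window and not binding.

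The rest of the pathway was read from 7 lists with 133 genes, none of them a member. Upon OHT in shNT 33 of 105 tested genes were called (12 higher and 21 lower), in the libraries labelled shCDK12 against shNT 87 of 107 (29 higher and 58 lower), upon OHT under the hairpin label 67 of 111 (50 higher and 17 lower), between the groups with OHT 66 of 109 (36 higher and 30 lower), and in the interaction 63 of 110 (48 higher and 15 lower). The shares of list genes called were 31.4%, 81.3%, 60.4%, 60.6% and 57.3% in this order. Over all genes tested they were 17.3%, 62.0%, 48.9%, 45.4% and 45.2%. Of all genes, 9.05%, 29.6%, 27.5%, 23.8% and 25.6% were higher. The shares lower were 8.29%, 32.4%, 21.5%, 21.6% and 19.6%.

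**Figure D5:**
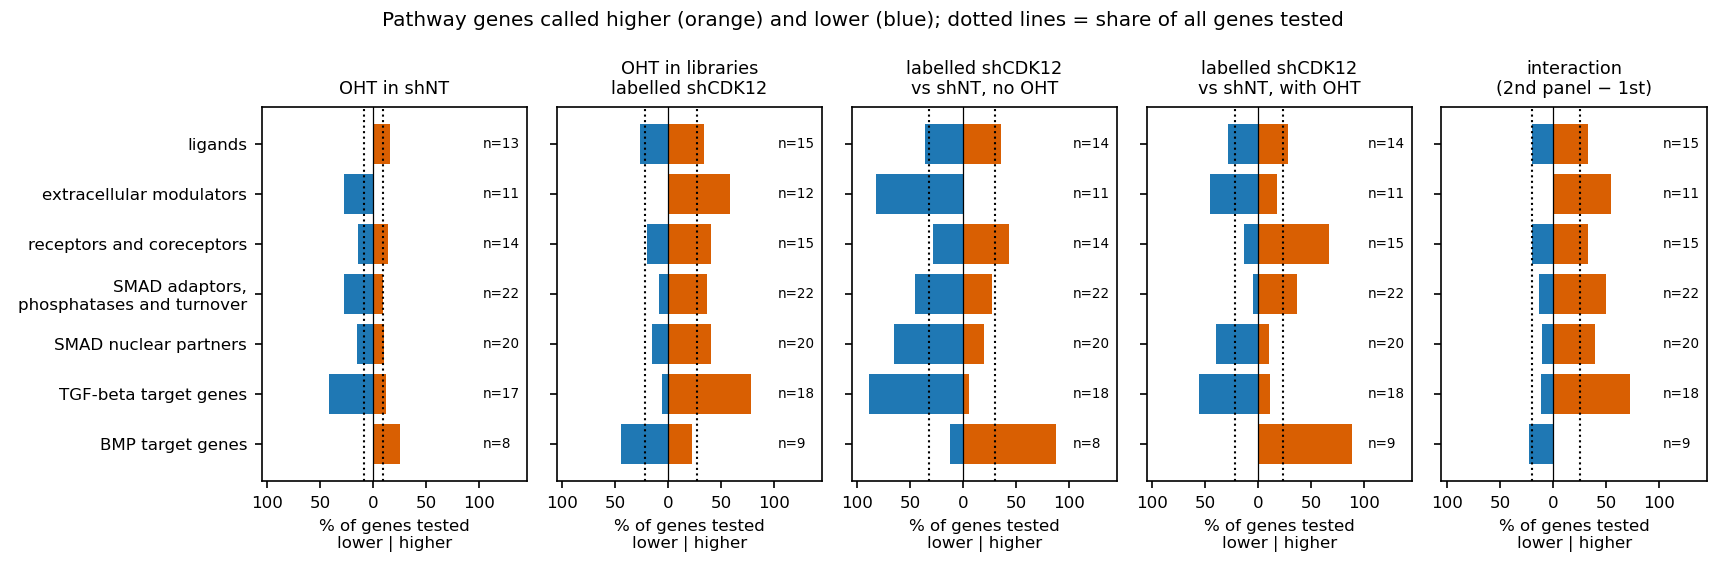
Share of the tested genes of each pathway list that were called higher (orange, to the right) or lower (blue, to the left) at an edgeR adjusted p under 0.05 in the 4 pairwise comparisons and the interaction, with the number tested at the right and the share over all genes as dotted lines. The 18 TGF-β target genes tested were mostly lower in the libraries labelled shCDK12 (16) and mostly higher there upon OHT (14).

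TGF-β target genes, a list of 20 that includes matrix genes and direct SMAD3 targets, were mostly lower in the libraries labelled shCDK12. Upon OHT in shNT 9 of 17 were called, 2 higher and 7 lower. COL4A1 (a basement membrane collagen) fell from 98.0 to 41.5 CPM and SNAI2 (an EMT transcription factor) from 179 to 80.6 CPM. The 2 that rose were TAGLN, from 165 to 377 CPM, and SNAI1, from 192 to 365 CPM. In the libraries labelled shCDK12 17 of 18 were called against shNT, 1 higher and 16 lower, with a median log2 fold change of −1.79. FN1 (fibronectin) was at 659 CPM in shNT and 38.2 CPM there (−4.12 ± 0.097, edgeR adjusted p = 9.79e-21), and TGFBI (a matrix protein induced by TGF-β) at 595 and 48.7 CPM, while SNAI1 was the 1 higher gene, at 192 and 476 CPM. Upon OHT under the hairpin label 15 of 18 were called, 14 higher and 1 lower, with TGFBI rising from 48.7 to 288 CPM (2.56 ± 0.090) and PMEPA1 (a feedback inhibitor that binds receptor-regulated SMADs) from 64.7 to 298 CPM (2.20 ± 0.083), and SNAI1 falling from 476 to 223 CPM. Between the groups with OHT 12 of 18 were called, 2 higher and 10 lower, among them FN1 at 347 and 100.1 CPM and TAGLN (an actin-binding protein) at 377 and 88.2 CPM. In the interaction 13 were higher and 2 lower of 18, with a median of 0.93. Leaving out 1 library at a time gave 9 to 12, 16 to 18, 13 to 15, 10 to 14 and 15 to 17 calls in these comparisons. The summed mesenchymal markers, which share FN1 and COL1A1 with this list and RUNX2 with the nuclear partners, had lower and higher sums in the same comparisons, as given above, and their part was not tested.

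BMP target genes moved otherwise. Of 8 tested in the libraries labelled shCDK12 against shNT all 8 were called, 7 higher and 1 lower, with a median of 1.31. ID3 (an inhibitor of bHLH factors) was at 106 and 373 CPM (1.80 ± 0.089, edgeR adjusted p = 6.48e-15) and ID4 at 37.5 and 149 CPM, while GATA2 was lower, at 16.8 and 7.57 CPM. With OHT in both arms 8 of 9 were higher and 0 lower, with ID2 at 11.7 and 38.0 CPM and ID4 at 38.0 and 115 CPM. Upon OHT 2 of 8 rose in shNT (ID3 from 106 to 165 CPM and ID1 from 385 to 519 CPM), and the count was 1 without replicate 1 or 2 of shNT. Under the hairpin label 6 of 9 were called upon OHT, with GATA2 and ATOH8 higher and 4 lower, among them MSX1 from 80.0 to 53.7 CPM. In the interaction 2 of 9 were called (22.2%, against 45.2% of all genes), both lower (ID3 at −1.04 and MSX2 at −0.66), and leaving out 1 library gave 1 to 4. It was 4 without replicate 1 of shNT_OHT, and 1 without replicate 2 of shNT_OHT, 2 or 3 labelled shCDK12, or 1 or 3 labelled shCDK12_OHT. MSX2 lost its call in most of these fits.

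The ligand list has 20 genes, among them BMP1, which is a protease and not a ligand of this family. Of these, 14 were tested in the libraries labelled shCDK12 against shNT and 10 were called, 5 in each direction. BMP8B, 1 of those higher, averaged 4.74 CPM in shNT, below the limit of the filter, and passed it only through the libraries labelled shCDK12. INHBA, the subunit of activin A, which signals through SMAD2 and SMAD3, was at 667 CPM in shNT and 105 CPM there (−2.68 ± 0.095, edgeR adjusted p = 1.06e-17), and TGFB2 at 366 and 104 CPM. BMP2, a ligand of the SMAD1, SMAD5 and SMAD9 arm, was at 35.0 and 144 CPM. Upon OHT under the hairpin label 5 of 15 rose, among them INHBA from 105 to 274 CPM and the protease BMP1. The 4 that fell included BMP2 from 144 to 76.0 CPM and BMP6 from 22.1 to 7.60 CPM. With OHT in both arms 8 of 14 genes of this list were called, 4 in each direction, with GDF15 at 107 and 188 CPM. These include BMP8A, higher, with 3.29 CPM in shNT_OHT, and INHBE, lower, with 3.82 CPM in libraries with the shCDK12_OHT label. Each was below the limit of the filter in the group named and passed only through the other. In shNT 2 of 13 rose upon OHT (15.4% called, against 17.3% of all genes), INHBE from 5.01 to 23.0 CPM and BMP2 from 35.0 to 53.6 CPM. INHBE was below the limit of the filter in shNT and passed it only through shNT_OHT, so its call is given as a description. The count called upon OHT in shNT was 5 without replicate 1 of shNT_OHT. It was 1, with BMP2 no longer called, without any other library but replicate 2 of shNT_OHT.

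Extracellular modulators, which hold latent ligand or trap it, were lower in the libraries labelled shCDK12, with 9 of 11 tested called and all 9 lower. LTBP2 (a latent TGF-β binding protein family member) was at 355 and 24.0 CPM (−3.90 ± 0.10, edgeR adjusted p = 2.26e-20) and THBS1 (an activator of latent TGF-β) at 2119 and 395 CPM. Upon OHT 3 of 11 fell in shNT and 0 rose, with FSTL3 (an activin antagonist) from 142 to 78.9 CPM, and 7 of 12 rose under the hairpin label and 0 fell, with LTBP2 from 24.0 to 50.9 CPM. With OHT in both arms 5 of 11 were lower and 2 higher, with NOG (a BMP antagonist) at 52.9 and 12.6 CPM. The interaction was higher for 6 of 11 and lower for 0.

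Among receptors and coreceptors 6 of 14 were higher and 4 lower in the libraries labelled shCDK12 than in shNT. TGFBR2, the receptor that binds TGF-β, was at 666 and 288 CPM (−1.22 ± 0.090, edgeR adjusted p = 1.99e-11) and BMPR2 at 148 and 63.7 CPM, while BAMBI, a pseudoreceptor that dampens signaling, was at 21.9 and 144.8 CPM. In shNT 2 rose and 2 fell of 14 upon OHT, with BAMBI from 21.9 to 43.6 CPM and BMPR2 from 148 to 85.1 CPM. Upon OHT under the hairpin label 6 of 15 rose and 3 fell, with ACVR2B (an activin receptor) from 65.3 to 130.3 CPM and BAMBI from 144.8 to 58.6 CPM. Between the groups with OHT 10 of 15 were higher and 2 lower, and the count called was 5 without replicate 1 or 2 and 6 without replicate 3 labelled shCDK12_OHT. ACVR1C, 1 of those higher, averaged 4.46 CPM in shNT_OHT, below the limit of the filter. It passed only through the group where it was high. In the interaction 5 of 15 were higher and 3 lower.

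The adaptors, phosphatases and turnover factors of SMADs include the ligase NEDD4L and the phosphatases CTDSP1 and CTDSP2. In the libraries labelled shCDK12 16 of 22 were called against shNT, 6 higher and 10 lower, with CTDSP1 at 106 and 39.6 CPM and NEDD4L at 149.6 and 64.0 CPM. Upon OHT there 8 rose and 2 fell, with CTDSP1 from 39.6 to 80.0 CPM and NEDD4L from 64.0 to 127 CPM. That is 45.5% called, against 48.9% of all genes. Between the 2 groups with OHT 9 of 22 were called (40.9%, against 45.4% of all genes), 8 higher in those labelled shCDK12_OHT, with CTDSP2 at 254 and 619 CPM. The count was 4 without any 1 of the 3 libraries labelled shCDK12_OHT. In shNT 8 of 22 were called upon OHT, 2 higher and 6 lower, but 1 without replicate 1 or 3 of shNT, 2 without replicate 2 of shNT and 3 without replicate 3 of shNT_OHT. The interaction was higher for 11 of 22 and lower for 3, with STUB1, a ligase for SMADs, at −2.78. STUB1 averaged 6.15 CPM in shNT, below the limit of the filter, and passed it only through other groups. It was also 1 of the 2 called higher upon OHT in shNT. Both calls of STUB1 are given as a description.

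Of the nuclear partners, 17 of 20 were called in the libraries labelled shCDK12 against shNT, 4 higher and 13 lower. RUNX2, the osteoblast factor that binds SMADs, was at 218 and 61.1 CPM (−1.85 ± 0.10, edgeR adjusted p = 6.68e-14) and RUNX3 at 49.2 and 6.55 CPM, while TGIF1, a SMAD corepressor, was at 177 and 480 CPM. Upon OHT under the hairpin label 8 of 20 rose and 3 fell, with RUNX2 from 61.1 to 109 CPM and TGIF1 from 480 to 231 CPM, and 7 were called without replicate 1 labelled shCDK12_OHT. Upon OHT in shNT TGIF1 rose from 177 to 298 CPM, and its 3 directions were opposite to those of SKIL. SKI was also higher in the libraries labelled shCDK12 than in shNT, but at 0.23 on the log2 scale against 1.43 for TGIF1. The call of SKI was lost in fits named above. In shNT 5 of 20 were called upon OHT, 2 higher and 3 lower, but 2 without replicate 1 or 3 of shNT or replicate 3 of shNT_OHT and 3 without replicate 2 of shNT. Between the groups with OHT 10 of 20 were called (50.0%, against 45.4% of all genes), 2 higher and 8 lower, but 4 and 5 without replicate 1 and 2 labelled shCDK12_OHT. The interaction was higher for 8 of 20 and lower for 2.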

How the data were processed

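Per the labels, new RNA was biotinylated from 40 µg of human and 10 µg of mouse RNA, captured and made into TruSeq Stranded Total RNA libraries. The authors deposited raw counts per gene, without normalization, for 12 libraries. The submitters' processing notes name STAR 2.7.5c, featureCounts 1.4.5-p1 and hg19. Strand use is not given in the sources used here. The table has no mouse genes, so scaling by mouse RNA was not possible and a change in total new RNA cannot be seen. Symbols came from RefSeq GRCh38.p14 for 23284 of 23434 genes, and exon lengths from GENCODE on GRCh38.

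Counts were tested with edgeR 4.0.16 in R 4.3.3 (TMM, quasi-likelihood test) on genes whose normalized counts averaged above 32 in the fit, with Benjamini-Hochberg adjustment over all genes tested and a threshold of 0.05. Each two-group comparison was a fit of its 6 libraries, and the interaction a fit of all 12. Simulated counts with 200 genes changed gave 150, 176, 192, 164 and 106 recovered with 10, 7, 7, 7 and 6 false calls for OHT in shNT, the hairpin label without OHT, OHT under the hairpin label, the hairpin label with OHT and the interaction. Alternatives were DESeq2 1.42.0, upper-quartile scaling, other filters, a replicate block, 1 fit of all 12 libraries, thinning to 1251695 counts and leaving out each library.

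The members, the lists and the tests were chosen with earlier results of these data known. Named genes are all members and, per list and comparison, up to 2 genes with the largest rise and 2 with the largest fall among those called whose libraries do not overlap. Some of these are given only in the counts.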

Additional observations from a re-analysis of the deposited data

Results flagged for a closer look

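The OHT response differed between shNT and the libraries labelled shCDK12 for the following genes, each by the interaction test over all 12 libraries with an edgeR adjusted p under 0.05, and the values are the response under the hairpin label minus that in shNT on the log2 scale. Among the members these were SMAD3 (1.38), SMAD6 (1.33), SKIL (1.25), SMAD2 (0.65), SMAD5 (0.52) and SMAD7 (0.46), of which SMAD2, SMAD6 and SMAD7 lost the call in fits named above.

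On the ligand list the difference was 1.495 for INHBA, 1.35 for the protease BMP1, −2.98 for INHBE and −1.58 for BMP6. INHBE lay below the limit of the filter in shNT and in the libraries labelled shCDK12_OHT. Among the modulators it was 1.90 for LTBP2 and 1.77 for FSTL3. Among the receptors it was 1.80 for ACVR2B, 1.53 for BMPR2, −2.33 for BAMBI and −1.61 for ENG. For the adaptors and phosphatases it was 1.501 for NEDD4L, 1.33 for CTDSP1, −2.78 for STUB1 and −1.25 for AXIN1. STUB1 lay below the limit of the filter in shNT. For the nuclear partners the difference was 1.63 for RUNX3, 1.54 for RUNX2, −1.80 for TGIF1 and −0.88 for E2F4. For the TGF-β targets it was 3.33 for TGFBI, 3.05 for PMEPA1, −2.02 for SNAI1 and −1.08 for TAGLN, and for the BMP targets −1.04 for ID3 and −0.66 for MSX2. The groups hold 3 libraries each, too few to test a single library as an outlier.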

How the results depend on the processing

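Each result was put in 1 class, with a change of sign taken first, then a lost call, then a gained one. Of 48 results for members, 23 kept their direction and their side of the threshold under all alternatives. In the other classes 9 lost a call, 7 gained one and 9 changed sign under at least 1. SMAD4 with OHT in both arms changed sign and also gained a call, and is counted by its sign. Of 120 results for pathway genes, 102 kept their call and 18 lost it under at least 1. Depth limits SMAD6 and SMAD9 most, and thinning to 1251695 counts left both untested.

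Genes called upon OHT in shNT numbered 3256 with all 12 libraries in one fit and 670 to 2523 with a library left out, and members called 0 to 3. Thinning, which left fewer genes to test, gave 4495 calls for the hairpin label without OHT, 3217 for OHT under that label, 3122 for the label with OHT and 3200 for the interaction. With OHT in both arms thinning left 1 member called, and leaving out a library gave 2 to 5 members and 3520 to 6238 genes. Thinning turned the calls upon OHT in shNT to 806 higher and 448 lower, against 930 and 852. With upper-quartile scaling 47.2% of interaction calls were higher, against 56.6%, and the larger side also changed for the hairpin label without OHT (3955 higher and 3286 lower, against 3465 and 3800), for OHT under that label (2959 and 3222, against 3442 and 2686) and for the label with OHT (2503 and 2770, against 2776 and 2522).

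Signs turned as follows, all for values that did not pass, and the cause was not tested. With upper-quartile scaling SKI was 0.0076 upon OHT in shNT, SMAD1 0.069 and CDK12 0.015 for the hairpin label without OHT, SMAD4 −0.055 upon OHT under that label and SMAD7 −0.028 for the label with OHT. With DESeq2 SMAD1, SMAD4 and SMAD7 were 0.014, −0.047 and −0.022 in the same comparisons, and thinned SMAD1 was 0.055. With a library left out SMAD7 ran from −0.098 to 0.0018 and SKI from −0.072 to 0.081 upon OHT in shNT, SMAD1 from −0.10 to 0.10 for the hairpin label without OHT, SMAD1 from −0.055 to 0.038, SMAD4 from −0.032 to 0.035 and SKI from −0.13 to 0.012 upon OHT under that label, SMAD4 from −0.031 to 0.51 and SMAD7 from −0.010 to 0.087 for the label with OHT, and SKI from −0.13 to 0.046 in the interaction.

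The labels do not say what a replicate number shares, and the libraries were not treated as paired because not every same-numbered pair correlated over 0.1. Deviations of same-numbered libraries correlated across genes at −0.094 to 0.30 (median 0.025, 2 of 18 pairs over 0.1) and those of other numbers at −0.33 to 0.10 (median −0.024, 1 of 36). Of the 12 libraries 9 correlated best with one of their own number, a hint from the data and not the design. With the replicate block 1734 genes were called upon OHT in shNT, 7437 for the hairpin label without OHT, 6236 for OHT under that label, 4846 for the label with OHT and 5385 for the interaction. SMAD2 gained a call in the second and the third of these (adjusted p = 0.0330 and 0.0208), no other call of a member changed, and among the pathway genes BMP2 and ENG upon OHT in shNT and LTBP3 with OHT in both arms lost theirs.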
